A study of Mus musculus with 10 samples.

Results

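The genes described here encode antioxidant and glutathione enzymes. They were chosen by symbol alone, as every row of the deposited table named Gpx1 to Gpx8, Gst of the alpha, mu, omega, pi, kappa, theta or zeta class with a single digit, Mgst1 to Mgst3, Prdx1 to Prdx6, Sod1 to Sod3, Txnrd1 to Txnrd3, Txn1, Gclc, Gclm, Gsr, Gss, Cat, Nqo1 or Hmox1. The rule found 52 of the 36172 genes listed. Of these, 45 were tested. Gpx2, Gpx5, Gpx6, Gsta2 and Gstt4 were listed at 0 in every library, and Gsta1 and Gstm6 lay below the filter on low values.

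Cells make superoxide and hydrogen peroxide in respiration and, in phagocytes, with dedicated oxidases. Superoxide dismutases turn superoxide into hydrogen peroxide, which catalase, glutathione peroxidases and peroxiredoxins reduce to water. Glutathione, a tripeptide with a free thiol, and thioredoxin, a small protein, hand on the electrons, and NADPH restores both through their reductases. Glutathione transferases couple glutathione to reactive compounds. Many of these genes are known targets of the transcription factor Nrf2, which binds the antioxidant response element.

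RNA was sequenced from cells cultured out of the left atrial appendage of C57BL/6 mice aged 8 to 12 weeks, in 10 libraries, 2 for each of 5 types. A cells were primary cells obtained after strong digestion with 0.25% trypsin and sorted as positive for c-kit and negative for CD45. B cells were primary cells obtained after weak digestion with 0.05% trypsin and sorted as carrying both markers. The C1, C2 and C3 libraries were B-type cells at passage 6, 8 and 10. C1 was c-kit positive and CD45 negative, and C2 and C3 were negative for both markers. All explants had been treated with collagenase D at 0.1% and placed in a medium with 10% serum and 0.1 mM 2-mercaptoethanol, a thiol that is itself a reducing agent. No untreated tissue and no culture without that thiol was analysed here. Digestion and sort cannot be told apart between A and B, nor can passage and sort between B, C1 and C2. The labels do not tie the libraries of a type to different mice or cultures. The p-values therefore measure the spread between these libraries, which may be technical.

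Values are on a log2 scale with the median of each gene over the 10 libraries set to 0, so a value of 1 is a doubling of that median. The table does not give how abundant one gene is against another, and no levels are compared between genes. Differences are B minus A, C1 minus B, C2 minus C1, C3 minus C2, C3 minus C1 or C1 minus A, plus or minus the standard error of limma with 2 libraries a type. Limma, a linear model that shares the spread between genes, was fitted to all 14253 tested genes and all 10 libraries. A gene is said to rise or fall where the adjusted p lay below 0.05 and the size of the difference reached 1, and such a gene is also said to be called. The spread is shared by all types, so a gap between the A libraries widens the error in every comparison of that gene. In RNA taken from many cells together, fewer cells of a type and less RNA per cell cannot be told apart.

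Relative depth, read from the spacing of low values, ran from 0.436 in B replicate 1 to 5.03 in C3 replicate 2. It lay between 0.436 and 0.596 over A and B, between 0.491 and 1.5 for C1 and C2 and at 3.86 and 5.03 for C3. The A libraries stood apart from each other, with a root mean square log2 difference of 1.06 over all tested genes against 0.43 to 0.52 within the other types. Over the 45 tested enzymes the median SD of a type was 0.44 for A, 0.0675 for B, 0.14 for C1, 0.12 for C2 and 0.19 for C3. Ptprc, the gene of CD45, lay at 2.74 and 6.35 for A and at 11.46 and 11.41 for B, and near its lowest value in every C library. Kit, the gene of c-kit, lay at -0.96 and 3.47 for A, 1.81 and 0.96 for B and 2.43 and 3.35 for C1, and at -2.71 and -1.07 for C2 and -2.71 for both C3 libraries. Sorted as negative for CD45, A replicate 2 thus held more Ptprc transcript than A replicate 1, and Kit in A replicate 1, sorted as positive for c-kit, lay near its value in C2 replicate 2, sorted as negative. Of 8 heart muscle markers 5 were tested, and Myh6, the atrial myosin heavy chain, was listed at 0 in every library. Among the tested 5, Myl7 rose from C2 to C3 (5.51 ± 0.18). Tnni3 fell from B to C1 (-3.08 ± 0.27), rose from C1 to C2 (4.91 ± 0.27) and fell from C2 to C3 (-2.99 ± 0.27). Ttn rose from A to B (1.51 ± 0.39) and fell from C1 to C2 (-1.33 ± 0.39).

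Antioxidant enzymes differed widely between the 5 types, and the largest steps lay in the secreted enzymes Gpx3 and Sod3 and in the glutathione transferases. Between any of the 5 types, 36 of the 45 tested enzymes passed limma's F test at an adjusted p under 0.05 with type means at least 1 apart, against 68.7% of all tested genes. The distance between the highest and the lowest type mean had a median of 1.96, beside 1.62 for all tested genes. B held the highest mean of 17 of the 45 enzymes, beside 25.1% of all tested genes. C3 held the lowest mean of 19 of them, beside 25.7%. In 8 enzymes the type means spanned less than 1, namely Gpx4, Gss, Gstz1, Prdx2, Prdx5, Prdx6, Sod1 and Txnrd3.

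**Figure D1:**
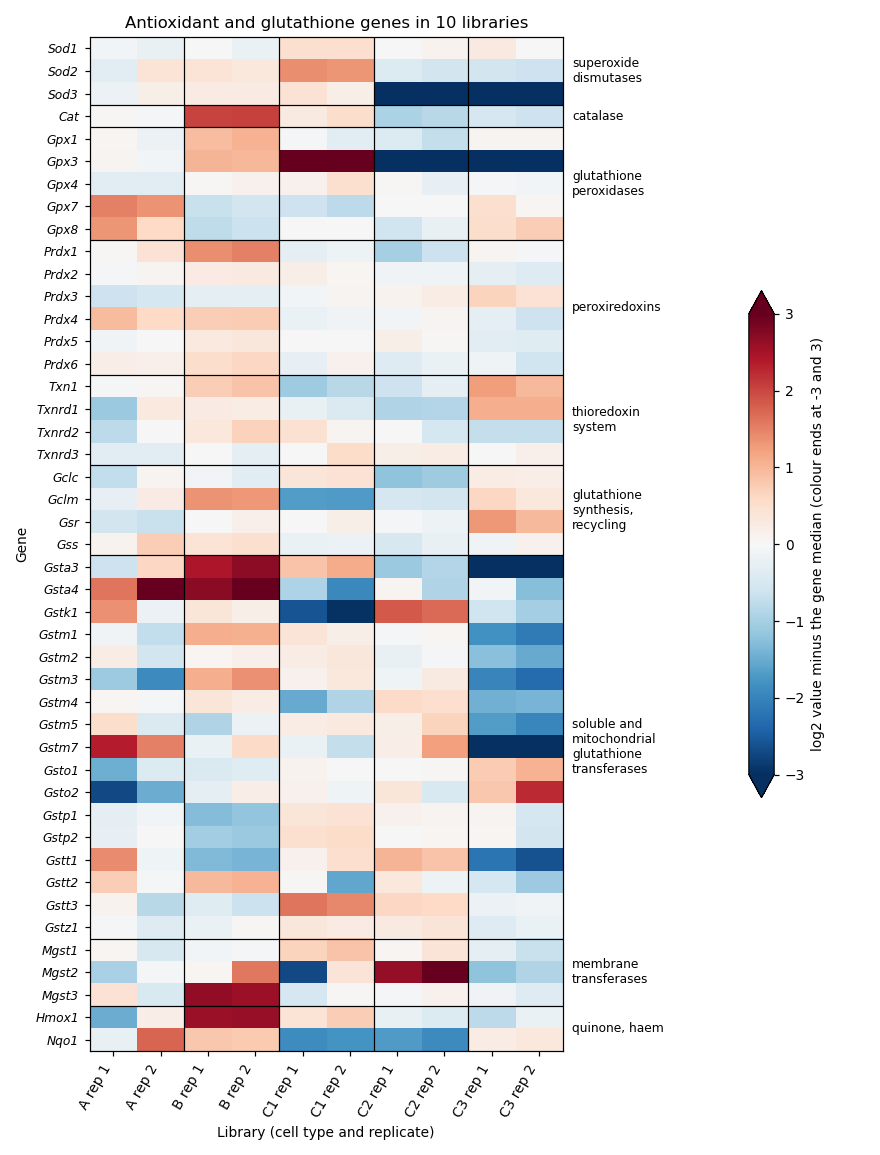
Log2 values of the 45 tested genes (rows, by role) in the 10 libraries (columns, by cell type), where 0 is the gene's own median, red above and blue below, and colours ending at -3 and 3. Gpx3 and Sod3 are deep blue in C2 and C3, the Gstm rows are blue in C3, and the peroxiredoxin rows other than Prdx1 are pale throughout.

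The primary types were set against each other first. From A to B, 16 of the 45 enzymes were called, 11 higher and 5 lower, against 26.9% of all tested genes called (14.5% higher and 12.4% lower). The median difference was 0.33 over the enzymes and 0.01 over all tested genes. Under quantile normalization 7 were higher and 5 lower, beside 10.4% and 12% of all tested genes. The count of falls was 2 without B replicate 1 and 3 when only the 4 libraries of A and B were fitted, beside 10.2% and 7.81% of all tested genes. C1 was compared with B to ask how B-type cells had changed by passage 6. From B to C1, 19 of the 45 enzymes were called, 5 higher and 14 lower, against 33.7% of all tested genes called (12.6% higher and 21.1% lower). The median difference was -0.22 over the enzymes and -0.07 over all tested genes. Under quantile normalization 7 were higher and 8 lower, beside 16.1% and 15.7% of all tested genes. The later passages were compared with one another to follow further change in culture. From C1 to C2, 10 of the 45 enzymes were called, 4 higher and 6 lower, against 20.4% of all tested genes called (12.2% higher and 8.18% lower). The median difference was -0.19 over the enzymes and 0.00 over all tested genes. From C2 to C3, 18 of the 45 enzymes were called, 7 higher and 11 lower, against 27.9% of all tested genes called (11.6% higher and 16.2% lower). The median difference was -0.23 over the enzymes and 0.00 over all tested genes. Under quantile normalization 9 were higher and 8 lower, beside 14.6% and 13.1% of all tested genes. From C1 to C3, 18 of the 45 enzymes were called, 6 higher and 12 lower, against 34.8% of all tested genes called (17.1% higher and 17.7% lower). The median difference was -0.31 over the enzymes and 0.00 over all tested genes. The count of rises was 3 without C1 replicate 2 or C3 replicate 1, beside 15.9% and 15.5% of all tested genes. C1 was also compared with A, since both were sorted as c-kit positive and CD45 negative. From A to C1, 12 of the 45 enzymes were called, 5 higher and 7 lower, against 26.6% of all tested genes called (10.1% higher and 16.6% lower). The median difference was 0.31 over the enzymes and -0.04 over all tested genes. Under quantile normalization 8 were higher and 7 lower, beside 15.6% and 14.8% of all tested genes. Without A replicate 2, 20 were called, 10 higher and 10 lower, beside 29% of all tested genes. Fitting only the 4 libraries of A and C1, 5 were called, 1 higher and 4 lower, beside 16.7%. The comparisons share libraries, so their counts are not independent. The share of enzymes called lower exceeded that of all genes from B to C1, C1 to C2, C2 to C3 and C1 to C3. The share called higher was larger from A to B and from C2 to C3. From A to C1 it was 11.1%, near the 10.1% of all genes. No test was made of these shares.

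**Figure D2:**
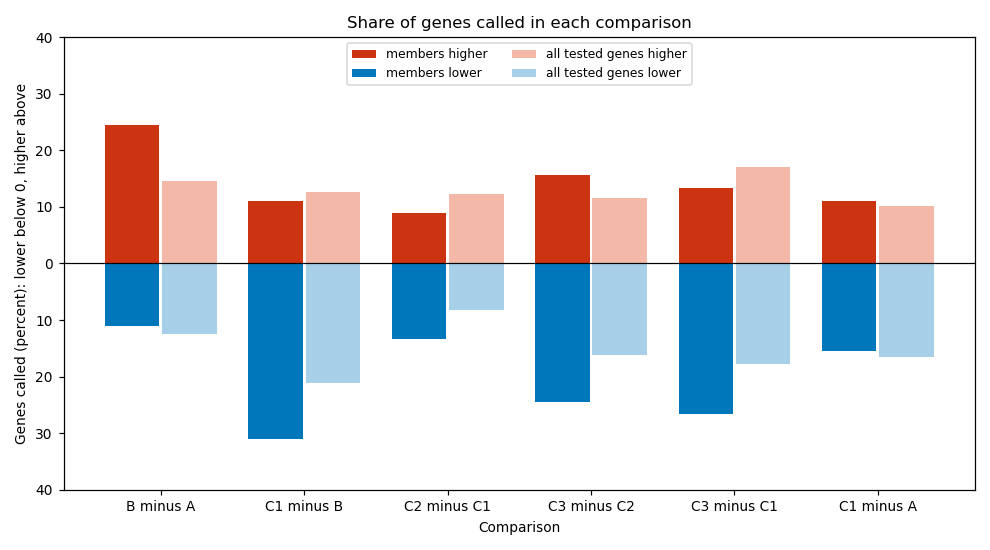
Percentage of the 45 tested enzymes (dark bars) and of all 14253 tested genes (light bars) called higher (above the zero line) or lower (below it) in each of the 6 comparisons. The enzymes stand above all genes for rises from A to B, 24.4% against 14.5%, and for falls from B to C1, 31.1% against 21.1%.

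Among the superoxide dismutases, the secreted and the mitochondrial enzyme changed in culture. Sod3, which is secreted and binds the extracellular matrix (chromosome 5, 52363804 to 52369738, build GRCm38), stood at -0.17 and 0.17 for A, 0.26 and 0.24 for B, 0.44 and 0.18 for C1, -4.66 and -4.87 for C2 and -4.21 and -4.69 for C3. All 6 libraries of A, B and C1 lay within a narrow band, and all 4 of C2 and C3 lay far below it. Sod3 fell from C1 to C2 (-5.07 ± 0.21, adjusted p = 4.23e-05), or 33.7-fold, and C3 against C2 gave 0.31 ± 0.21, adjusted p = 0.275. From C1 to C3 the difference was -4.76 ± 0.21. On the reading that the lowest library holds at least 1 normalized read, the C1 libraries held at least 33.1 and 39.6. Sod2, the manganese enzyme of mitochondria (chromosome 17, 13007839 to 13018119), stood at -0.33 and 0.41 for A, 0.42 and 0.33 for B, 1.39 and 1.33 for C1, -0.42 and -0.55 for C2 and -0.54 and -0.61 for C3. It was highest in both C1 libraries and lowest in C2 and C3. It fell from C1 to C2 (-1.84 ± 0.23, adjusted p = 0.00163) and was lower in C3 than in C1 (-1.93 ± 0.23) and higher in C1 than in A (1.32 ± 0.23), while C1 against B gave 0.99 ± 0.23, just under a difference of 1. The call of Sod2 between C1 and A was lost without A replicate 1 (0.95) and in a fit on the 4 libraries alone (adjusted p = 0.0705). Sod1, the copper and zinc enzyme of the cytosol (chromosome 16, 90220762 to 90226333), stood at -0.09 and -0.23 for A, -0.02 and -0.21 for B, 0.49 and 0.50 for C1, 0.01 and 0.09 for C2 and 0.26 and -0.01 for C3 and was called in none of the 6 comparisons.

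Catalase, the peroxisomal enzyme that splits hydrogen peroxide, was highest in B. Cat (chromosome 2, 103453904 to 103485153) stood at 0.03 and -0.03 for A, 2.03 and 2.05 for B, 0.26 and 0.53 for C1, -0.95 and -0.83 for C2 and -0.51 and -0.62 for C3. Both B libraries lay above every other library, and C2 and C3 lay below all A libraries. Cat rose from A to B (2.04 ± 0.14, adjusted p = 0.000126), fell from B to C1 (-1.64 ± 0.14, adjusted p = 0.000154) and fell again from C1 to C2 (-1.29 ± 0.14, adjusted p = 0.000979). The call of Cat between C1 and B was lost under quantile normalization (-0.76). From C2 to C3 it gave 0.32 ± 0.14 and was not called.

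The glutathione peroxidases held the largest change of all 45 enzymes. Gpx3, the secreted peroxidase of plasma and the extracellular space (chromosome 11, 54902854 to 54910387), stood at 0.08 and -0.08 for A, 1.03 and 0.99 for B, 3.51 and 3.43 for C1, -4.59 and -4.97 for C2 and -7.28 and -7.21 for C3. The replicates lay close together in every type, and no 2 types overlapped. Gpx3 rose from A to B (1.01 ± 0.16) and from B to C1 (2.46 ± 0.16, adjusted p = 5.33e-05), then fell from C1 to C2 (-8.25 ± 0.16, adjusted p = 1.57e-06) and from C2 to C3 (-2.47 ± 0.16, adjusted p = 0.000102). C3 lay 1679-fold below C1 (-10.71 ± 0.16), and C1 lay above A (3.47 ± 0.16). On the scale of normalized reads, with the lowest value read as at least 1, the C1 libraries held at least 1670 and 1776 normalized reads. The call of Gpx3 between B and A was lost without A replicate 2 or B replicate 1 (0.93 and 0.99 in turn) and under quantile normalization (0.74). The call of Gpx3 between C3 and C2 was lost under quantile normalization (0.06, of the opposite sign). Quantile normalization forces the same distribution of values on every library. Both Gpx3 and Sod3 are secreted enzymes, and both fell from C1 to C2. Gpx3 was also called from B to C1 and from C2 to C3, where Sod3 was not, and the difference between the genes was not tested.

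Gpx7 and Gpx8, which work in the endoplasmic reticulum where proteins fold, were highest in A. Gpx7 (chromosome 4, 108400217 to 108406713) stood at 1.51 and 1.35 for A, -0.68 and -0.55 for B, -0.61 and -0.78 for C1, -0.02 and 0.02 for C2 and 0.47 and 0.06 for C3, and both A libraries lay above all others. It was lower in B (-2.05 ± 0.17, adjusted p = 0.000246) and in C1 (-2.13 ± 0.17, adjusted p = 0.000265) than in A. Gpx8 (chromosome 13, 113042757 to 113046430) stood at 1.33 and 0.59 for A, -0.75 and -0.65 for B, -0.01 and 0.01 for C1, -0.60 and -0.23 for C2 and 0.52 and 0.74 for C3. It was lower in B than in A (-1.66 ± 0.26, adjusted p = 0.00267), 1 C3 library lay above the lower of the A values, and it rose from C2 to C3 (1.04 ± 0.26). The call of Gpx8 between C3 and C2 was lost without C2 replicate 1 or C3 replicate 2 (0.85 and 0.93 in turn). Gpx1, the cytosolic peroxidase, stood at 0.07 and -0.19 for A, 0.92 and 1.05 for B, -0.07 and -0.31 for C1, -0.41 and -0.71 for C2 and 0.08 and 0.08 for C3. It rose from A to B (1.04 ± 0.17) and fell from B to C1 (-1.17 ± 0.17). The call of Gpx1 between B and A was lost without A replicate 2 or B replicate 2 (0.91 and 0.98 in turn) and under quantile normalization (0.79). The call of Gpx1 between C1 and B was lost under quantile normalization (-0.89). Gpx4, which reduces lipid peroxides in membranes, ranged over the type means by 0.63 and was called in none of the 6 comparisons.

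**Figure D3:**
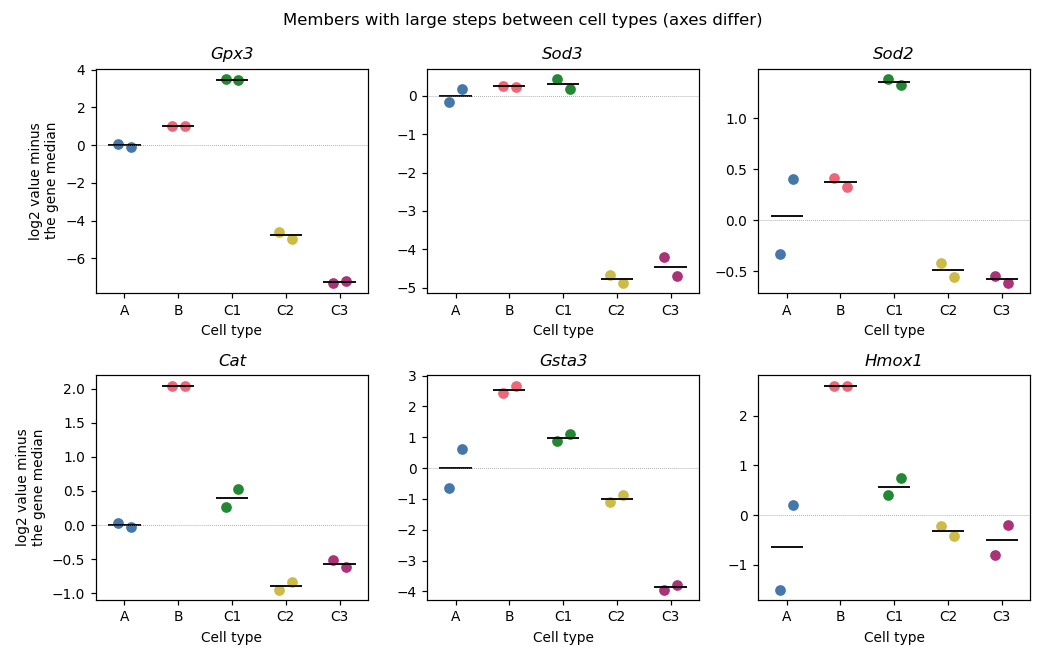
Log2 values, gene median at 0, of 6 enzymes with large steps between cell types, with a point per library, a line at the mean of each type and a separate vertical axis per gene. Gpx3 runs from 3.51 and 3.43 in C1 to -7.28 and -7.21 in C3, Sod3 drops between C1 and C2, and Cat and Hmox1 are highest in both B libraries.

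Peroxiredoxins, which reduce peroxides with a reactive cysteine, were called in none of the 6 comparisons except for Prdx1. Over all 5 types, limma's F test called Prdx1, Prdx3 and Prdx4. Prdx1, a cytosolic peroxiredoxin (chromosome 4, 116685599 to 116700000), stood at 0.03 and 0.44 for A, 1.40 and 1.51 for B, -0.29 and -0.16 for C1, -1.0 and -0.65 for C2 and 0.08 and -0.03 for C3. Both B libraries lay above all others. It rose from A to B (1.22 ± 0.19, adjusted p = 0.0027) and fell from B to C1 (-1.68 ± 0.19, adjusted p = 0.000495). The call of Prdx1 between B and A was lost under quantile normalization (0.77). Prdx4, the peroxiredoxin of the endoplasmic reticulum (chromosome X, 155323918 to 155342272), stood at 0.96 and 0.60 for A, 0.75 and 0.77 for B, -0.20 and -0.10 for C1, -0.09 and 0.09 for C2 and -0.30 and -0.63 for C3, with all 4 libraries of A and B above those of C1, C2 and C3, and its difference from B to C1 (-0.91 ± 0.18, adjusted p = 0.00526) was below the size required. Prdx3, which resides in mitochondria (chromosome 19, 60864066 to 60874538), stood at -0.62 and -0.53 for A, -0.29 and -0.29 for B, -0.07 and 0.07 for C1, 0.11 and 0.23 for C2 and 0.66 and 0.44 for C3. Its A libraries were lowest and its C3 libraries highest, and it was called in none of the 6 comparisons.

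Of the 4 genes of glutathione synthesis and recycling, 3 rose from C2 to C3 and Gss was not called (0.37 ± 0.22). Of the 4 of the thioredoxin system, 2 rose, and Txnrd2 and Txnrd3 were not called (-0.43 ± 0.31 and -0.13 ± 0.21). Of all tested genes 11.6% rose in this step. Gclm encodes the modifier subunit and Gclc the catalytic subunit of glutamate-cysteine ligase, which catalyses the rate-limiting step of glutathione synthesis, Gsr encodes glutathione reductase, Txn1 thioredoxin, and Txnrd1 the cytosolic thioredoxin reductase. Nqo1 encodes a quinone reductase. Nqo1 rose as well, and of these 6 risen genes 5, all but Gclc, had both C3 libraries above all 4 libraries of C1 and C2. The 6 were grouped because they rose, so their common direction is no result. For Gclc and Gsr no promoter was listed. The other 4, Gclm, Txnrd1, Txn1 and Nqo1, are known targets of Nrf2 that rose from C2 to C3, and Gpx3 had the largest difference of the 45 enzymes. For these reasons the promoters of these 4 and of Gpx3 are printed here. They are the 250 bases before a transcript start, 5′ to 3′ on the strand of the gene, from RefSeq with build GRCm38.p6, and capitals mark the core of the antioxidant response element, TGACNNNGC, on either strand (on the printed strand also as its reverse complement).
Gclm promoter, chr3:122245307-122245556, plus strand: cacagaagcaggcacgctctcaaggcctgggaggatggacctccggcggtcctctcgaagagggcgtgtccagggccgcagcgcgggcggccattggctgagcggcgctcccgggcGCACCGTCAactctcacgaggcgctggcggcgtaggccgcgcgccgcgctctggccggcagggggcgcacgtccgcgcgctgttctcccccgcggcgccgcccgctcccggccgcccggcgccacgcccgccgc
Txnrd1 promoter, chr10:82858956-82859205, plus strand: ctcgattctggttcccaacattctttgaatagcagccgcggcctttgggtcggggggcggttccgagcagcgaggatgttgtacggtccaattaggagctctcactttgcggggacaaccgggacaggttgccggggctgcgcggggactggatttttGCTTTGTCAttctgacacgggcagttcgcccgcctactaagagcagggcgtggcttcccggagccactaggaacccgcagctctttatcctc
Txn1 promoter, chr4:57956412-57956661, minus strand: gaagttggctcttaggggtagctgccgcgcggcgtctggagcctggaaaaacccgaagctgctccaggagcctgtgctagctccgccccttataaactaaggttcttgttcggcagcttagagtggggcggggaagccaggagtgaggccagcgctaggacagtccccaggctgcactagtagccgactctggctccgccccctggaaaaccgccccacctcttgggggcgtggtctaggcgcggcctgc
Nqo1 promoter, chr8:107403206-107403455, minus strand: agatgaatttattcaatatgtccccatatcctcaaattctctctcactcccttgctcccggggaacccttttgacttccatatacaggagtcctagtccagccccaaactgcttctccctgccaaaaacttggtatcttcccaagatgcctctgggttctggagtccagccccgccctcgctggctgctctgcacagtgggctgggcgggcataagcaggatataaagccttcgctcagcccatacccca
Gpx3 promoter, chr11:54902604-54902853, plus strand: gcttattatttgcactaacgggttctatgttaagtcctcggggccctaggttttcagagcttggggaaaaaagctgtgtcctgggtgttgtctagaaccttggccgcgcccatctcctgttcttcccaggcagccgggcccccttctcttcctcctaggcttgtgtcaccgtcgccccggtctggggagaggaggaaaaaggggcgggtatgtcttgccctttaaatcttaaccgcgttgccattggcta
The core lay 134 to 126 bases before the start in Gclm and 92 to 84 bases before 1 of the 3 starts listed for Txnrd1, and these letters were not in the window of Txn1, Nqo1 or Gpx3. For Gclm that start is the base after 122245556, inside the gene span given below, which begins at 122245487. RefSeq promoters matched 38 of the 45 tested enzymes, and 8 of these genes held the core in a window, namely Gclm, Gsta3, Gstm5, Gstm7, Mgst1, Prdx1, Sod1 and Txnrd1. From C2 to C3, Gclm and Txnrd1 of these rose, Gsta3, Gstm5 and Gstm7 fell, and Mgst1, Prdx1 and Sod1 were not called. Among all 27025 genes with a listed promoter, 11.5% held it, and among all 32851 promoters 10.2%. Such a match is a description of the sequence and shows no binding.

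Gclm (chromosome 3, 122245487 to 122267215) was called in every comparison. Its values were -0.25 and 0.25 for A, 1.36 and 1.31 for B, -1.67 and -1.70 for C1, -0.51 and -0.55 for C2 and 0.62 and 0.33 for C3. It rose from A to B (1.33 ± 0.19, adjusted p = 0.00192), fell from B to C1 (-3.02 ± 0.19, adjusted p = 4.71e-05), and rose from C1 to C2 (1.15 ± 0.19, adjusted p = 0.00458) and from C2 to C3 (1.00 ± 0.19, adjusted p = 0.00555). C1 was also lower than A (-1.68 ± 0.19) and C3 higher than C1 (2.16 ± 0.19). The call of Gclm between B and A was lost under quantile normalization (0.94). The call of Gclm between C2 and C1 was lost under quantile normalization (0.82). The call of Gclm between C3 and C2 was lost without C2 replicate 2 or C3 replicate 1 (0.98 and 0.86 in turn). Both C1 libraries were thus lowest and both B libraries highest. Gclc (chromosome 9, 77754535 to 77794489) stood at -0.74 and 0.08 for A, -0.08 and -0.31 for B, 0.36 and 0.43 for C1, -1.21 and -1.06 for C2 and 0.21 and 0.21 for C3, with C2 lowest. It fell from C1 to C2 (-1.52 ± 0.26, adjusted p = 0.00504) where Gclm rose, and both subunits rose from C2 to C3 (Gclc 1.34 ± 0.26). Gsr (chromosome 8, 33653238 to 33698162) stood at -0.55 and -0.66 for A, 0.01 and 0.15 for B, -0.01 and 0.18 for C1, -0.06 and -0.15 for C2 and 1.29 and 0.97 for C3, with C3 highest and A lowest. It rose from C2 to C3 (1.24 ± 0.16, adjusted p = 0.00121) and from C1 to C3 (1.05 ± 0.16). The call of Gsr between C3 and C1 was lost without C1 replicate 1 or C3 replicate 1 (0.95 and 0.89 in turn). Gss, which adds glycine in the last step of synthesis, spanned 0.80 and was called in no comparison.

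Txn1 (chromosome 4, 57943373 to 57956411) stood at -0.02 and 0.02 for A, 0.75 and 0.86 for B, -1.06 and -0.84 for C1, -0.61 and -0.27 for C2 and 1.25 and 0.96 for C3. C3 and B were high and C1 lowest. It fell from B to C1 (-1.75 ± 0.18, adjusted p = 0.000313), then rose from C2 to C3 (1.55 ± 0.18, adjusted p = 0.000792) and from C1 to C3 (2.05 ± 0.18). Txnrd1 (chromosome 10, 82833951 to 82897724) stood at -1.12 and 0.30 for A, 0.26 and 0.21 for B, -0.21 and -0.43 for C1, -0.90 and -0.88 for C2 and 1.08 and 1.10 for C3, with C3 highest and A replicate 1 lowest. It rose from C2 to C3 (1.98 ± 0.40, adjusted p = 0.00712) and from C1 to C3 (1.41 ± 0.40). The call of Txnrd1 between C3 and C1 was lost without any 1 of the 4 libraries (1.30 to 1.52). Txnrd2, the mitochondrial reductase (chromosome 16, 18426417 to 18479073), stood at -0.78 and 0.02 for A, 0.31 and 0.68 for B, 0.47 and 0.08 for C1, -0.02 and -0.53 for C2 and -0.71 and -0.71 for C3, lowest in C3 beside A replicate 1, and Txnrd2 and Txnrd3 were called in no comparison.

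Nqo1 (chromosome 8, 107388225 to 107403205) stood at -0.22 and 1.74 for A, 0.80 and 0.79 for B, -1.88 and -1.79 for C1, -1.70 and -1.91 for C2 and 0.22 and 0.31 for C3. A replicate 2 was the highest of all libraries, while C1 and C2 lay lowest. It fell from B to C1 (-2.63 ± 0.54, adjusted p = 0.00624), was lower in C1 than in A (-2.60 ± 0.54), and rose from C2 to C3 (2.07 ± 0.54, adjusted p = 0.0196) and from C1 to C3 (2.10 ± 0.54). The wide gap within A enters the spread used for all types, so that the standard error was 0.54 in every comparison, and on the 4 libraries of C2 and C3 alone it was 0.12 (adjusted p = 0.00736). The call of Nqo1 between C1 and A was lost in a fit on the 4 libraries alone (adjusted p = 0.0988). The Nqo1 difference between C1 and A was -1.62 without A replicate 2. The call of Nqo1 between C3 and C1 was lost without any 1 of the 4 libraries (2.05 to 2.14). The call of Nqo1 between C3 and C2 was lost without any 1 of the 4 libraries (1.96 to 2.17).

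**Figure D4:**
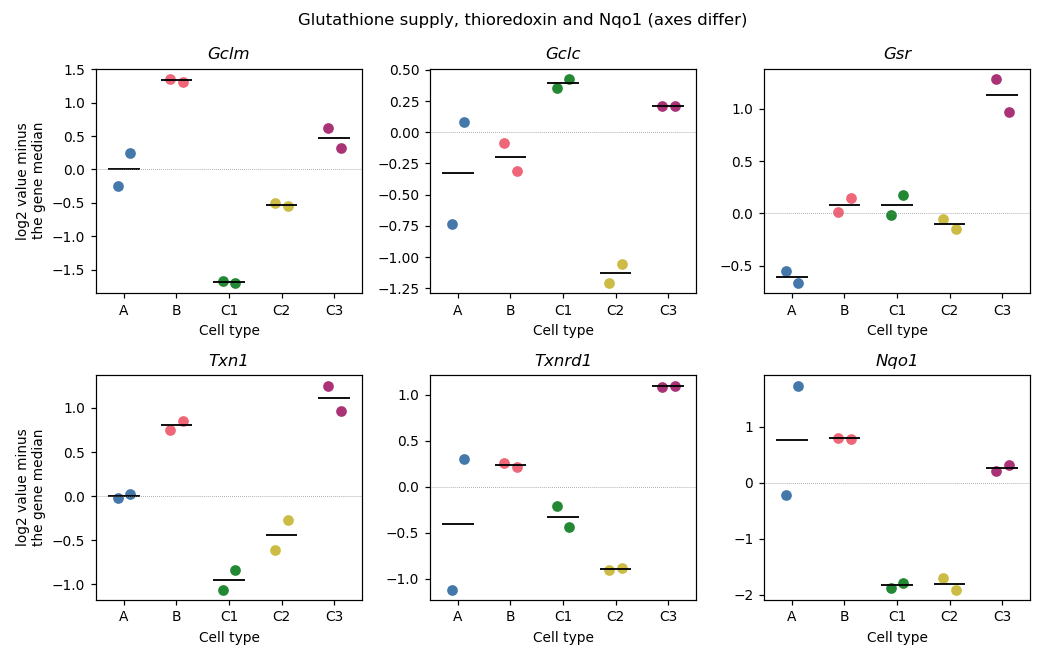
Log2 values, gene median at 0, of 6 genes of glutathione supply, thioredoxin and quinone reduction, with a point per library, a line at the mean of each type and a separate vertical axis per gene. Both C3 points lie above both C2 points in all 6 genes, and the C1 points are lowest for Gclm and Txn1.

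Hmox1, haem oxygenase 1, which breaks down haem and is abundant in macrophages, was highest in B. Hmox1 (chromosome 8, 75093618 to 75100593) stood at -1.50 and 0.20 for A, 2.59 and 2.60 for B, 0.41 and 0.74 for C1, -0.22 and -0.42 for C2 and -0.79 and -0.20 for C3. Both B libraries lay above all others and A replicate 1 was lowest. It rose from A to B (3.25 ± 0.51, adjusted p = 0.00271) and fell from B to C1 (-2.02 ± 0.51, adjusted p = 0.0142). The call of Hmox1 between B and A was lost in a fit on the 4 libraries alone (adjusted p = 0.0545). The call of Hmox1 between C1 and B was lost without B replicate 1, B replicate 2 or C1 replicate 1 (-2.03, -2.02 and -1.85 in turn) and under quantile normalization (-0.75).

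Of the 17 enzymes with their highest mean in B, 9 rose from A to B and 11 fell from B to C1. They were picked for their high mean in B, so these directions were fixed by the choice and are no result. Markers of macrophages changed in the same steps. Of 13 macrophage and leukocyte markers tested, 13 rose from A to B and 13 fell from B to C1. Their mean log2 value was -0.0558 and 4.08 for A, 9.62 and 9.61 for B, and between -1.0 and 0.17 in the 6 C libraries. Over the 4 of them with a known level, Ptprc, Emr1, Tyrobp and Cd52, the summed normalized reads were 16.1 and 403 for A, 24032 and 23294 for B and between 4.04 and 7.08 in the C libraries, where 4 is the lowest sum possible. Markers of other cells changed there too. From A to B, 4 of 7 mesothelial markers and 2 of 6 endothelial markers rose, and 6 of 10 fibroblast markers fell. From B to C1, 6 of 6 endothelial markers fell, with a median difference of -4.99, as did 3 of 7 mesothelial and 4 of 10 fibroblast markers, while 1 fibroblast marker rose. The part of these shifts in markers in the differences of Cat, Gpx1, Prdx1, Gclm, Hmox1, Mgst3, Gsta3 and Gstm3 was not tested. Of the 16 enzymes called between A and B, 9 had A replicate 2, the A library with more macrophage transcripts, nearer to B than A replicate 1. Over all tested genes A replicate 2 was nearer to B as well. Its root mean square log2 difference from the B libraries was 1.54 and 1.53, against 2.00 and 1.99 for A replicate 1. The share among all called genes was not counted, so the 9 are no result about these enzymes. Without A replicate 1, 15 enzymes were called between A and B, beside 26.9% of all tested genes, and without A replicate 2, 18, beside 30.2%. Catalase and several peroxiredoxins are also abundant in red blood cells. Of the 6 red blood cell markers in the table only Alas2 was tested, and it was called in no comparison.

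Many soluble glutathione transferases, which are grouped into classes by sequence, were lower in C3 than in the earlier passages. Of the 17 tested soluble and mitochondrial transferases, 9 fell and 0 rose from C2 to C3, and 8 fell and 1 rose from C1 to C3. Of all tested genes 16.2% fell and 11.6% rose in the first of these steps and 17.7% and 17.1% in the other. Over these and the 3 membrane transferases, 12 of 20 had their lowest mean in C3. The 7 genes of the mu class, Gstm1 to Gstm7, lie side by side on chromosome 3 between 107895854 and 108045179. Gstm1, Gstm2, Gstm3, Gstm4, Gstm5 and Gstm7 all fell from C2 to C3, with a median difference of -2.09, and 5 of these 6, all but Gstm4, fell from C1 to C3 (-2.36 ± 0.30 for Gstm3, -2.25 ± 0.23 for Gstm1, -2.07 ± 0.38 for Gstm5 and -1.66 ± 0.25 for Gstm2, with Gstm7 below).  Of 11 tested genes of other families within 250000 bases on either side, 3 fell and 0 rose from C2 to C3, with a median of -0.0582. The neighbours were examined after the fall was seen.

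Gstm7 (chromosome 3, 107926334 to 107931877) stood at 2.35 and 1.51 for A, -0.19 and 0.58 for B, -0.19 and -0.72 for C1, 0.19 and 1.22 for C2 and -3.06 and -3.13 for C3. A was highest and both C3 libraries far lowest. It fell from C2 to C3 (-3.80 ± 0.45, adjusted p = 0.000904) and from C1 to C3 (-2.64 ± 0.45) and was lower in B (-1.73 ± 0.45) and C1 (-2.38 ± 0.45) than in A. The call of Gstm7 between B and A was lost without A replicate 1 or B replicate 1 (-1.31 and -1.35 in turn), under quantile normalization (-1.76) and in a fit on the 4 libraries alone (adjusted p = 0.0819). The call of Gstm7 between C3 and C1 was lost under quantile normalization (-1.62). Gstm5 (chromosome 3, 107895854 to 107898685) stood at 0.53 and -0.44 for A, -0.91 and -0.18 for B, 0.21 and 0.28 for C1, 0.18 and 0.68 for C2 and -1.68 and -1.96 for C3, again with both C3 libraries lowest. The other falls from C2 to C3 were -2.24 ± 0.38 for Gstm5, -2.21 ± 0.30 for Gstm3, -1.97 ± 0.23 for Gstm1, -1.96 ± 0.20 for Gstm4 and -1.25 ± 0.25 for Gstm2. The call of Gstm2 between C3 and C2 was lost under quantile normalization (-0.74). Gstm3 (chromosome 3, 107963696 to 107969174) and Gstm1 (chromosome 3, 108012250 to 108017973) were also higher in B than in A (2.72 ± 0.30 and 1.49 ± 0.23). Gstm3 stood at -1.08 and -1.91 for A, 1.08 and 1.36 for B, 0.13 and 0.31 for C1, -0.13 and 0.26 for C2 and -1.98 and -2.31 for C3, so that both A libraries lay between C3 and the rest. Gstm3 was higher in C1 than in A (1.71 ± 0.30) and fell from B to C1 (-1.0 ± 0.30). The call of Gstm3 between C1 and A was lost in a fit on the 4 libraries alone (adjusted p = 0.0565). The call of Gstm3 between C1 and B was lost without any 1 of the 4 libraries (-1.15 to -0.86), after library median centring (-1.0) and under quantile normalization (-0.57). Gstm4 (chromosome 3, 108030571 to 108045179) stood at 0.06 and -0.06 for A, 0.36 and 0.23 for B, -1.51 and -0.90 for C1, 0.57 and 0.50 for C2 and -1.45 and -1.40 for C3, with both C2 libraries highest and the mean of C3 lowest. It fell from B to C1 (-1.50 ± 0.20), rose from C1 to C2 (1.74 ± 0.20) and then fell to C3, and it was lower in C1 than in A (-1.21 ± 0.20). The call of Gstm4 between C1 and A was lost without C1 replicate 1 (-0.90) and in a fit on the 4 libraries alone (adjusted p = 0.065). The mu genes are close relatives and how shared reads were counted is not known here, so their separate values are uncertain. Gstm6, below the filter, stood at 0.62 and -0.30 for A, -1.43 and 3.27 for B, 0.30 and -0.46 for C1, 0.84 and 1.49 for C2 and -1.44 and -1.44 for C3, with the B libraries at its highest and near its lowest value.

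Gsta3, a transferase of the alpha class (chromosome 1, 21240565 to 21265575) and a downward order of passages, stood at -0.63 and 0.63 for A, 2.42 and 2.67 for B, 0.86 and 1.11 for C1, -1.11 and -0.88 for C2 and -3.94 and -3.80 for C3, descending from B over C1 and C2 to C3 with no overlap. It rose from A to B (2.55 ± 0.38, adjusted p = 0.00217), fell from B to C1 (-1.56 ± 0.38, adjusted p = 0.0122), from C1 to C2 (-1.98 ± 0.38, adjusted p = 0.00773) and from C2 to C3 (-2.87 ± 0.38, adjusted p = 0.00131), and C3 was lower than C1 (-4.86 ± 0.38). The call of Gsta3 between B and A was lost in a fit on the 4 libraries alone (adjusted p = 0.0529). The call of Gsta3 between C1 and B was lost without B replicate 2 or C1 replicate 1 (-1.43 and -1.44 in turn) and under quantile normalization (0.02, of the opposite sign). The call of Gsta3 between C3 and C2 was lost under quantile normalization (-1.16). Gsta4, which conjugates products of lipid peroxidation (chromosome 9, 78191966 to 78209349), stood at 1.61 and 3.58 for A, 2.71 and 3.23 for B, -0.93 and -1.94 for C1, 0.09 and -0.89 for C2 and -0.09 and -1.27 for C3. C1 was lowest. It fell from B to C1 (-4.41 ± 0.74) and was lower in C1 than in A (-4.03 ± 0.74). The call of Gsta4 between C1 and A was lost in a fit on the 4 libraries alone (adjusted p = 0.0592).

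Gstk1, the kappa enzyme of mitochondria and peroxisomes (chromosome 6, 42245935 to 42250441), alternated between passages. Its values were 1.37 and -0.18 for A, 0.36 and 0.18 for B, -2.59 and -2.95 for C1, 1.85 and 1.71 for C2 and -0.61 and -1.01 for C3. It fell from B to C1 (-3.04 ± 0.46, adjusted p = 0.00165), rose from C1 to C2 (4.55 ± 0.46, adjusted p = 0.000739) and fell from C2 to C3 (-2.59 ± 0.46, adjusted p = 0.00428). From C1 to C3 it was higher by 1.96 ± 0.46, and in C1 it was lower than in A (-3.37 ± 0.46). The call of Gstk1 between C3 and C1 was lost without C1 replicate 2 or C3 replicate 1 (1.78 and 1.76 in turn). Both C2 libraries lay above every other library.

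Of the theta class, Gstt1 (chromosome 10, 75783813 to 75798584) stood at 1.42 and -0.14 for A, -1.31 and -1.38 for B, 0.14 and 0.51 for C1, 1.02 and 0.85 for C2 and -2.18 and -2.62 for C3. It fell from C2 to C3 (-3.34 ± 0.46) and from C1 to C3 (-2.72 ± 0.46), rose from B to C1 (1.67 ± 0.46) and was lower in B than in A (-1.99 ± 0.46). The call of Gstt1 between C1 and B was lost without any 1 of the 4 libraries (1.48 to 1.86). The call of Gstt1 between B and A was lost without B replicate 1 or B replicate 2 (-2.03 and -1.96 in turn) and in a fit on the 4 libraries alone (adjusted p = 0.108). The Gstt1 difference between B and A was -1.21 without A replicate 1. Gstt3 (chromosome 10, 75774117 to 75781422) stood at 0.11 and -0.83 for A, -0.36 and -0.65 for B, 1.61 and 1.43 for C1, 0.62 and 0.60 for C2 and -0.17 and -0.11 for C3. Its C1 libraries were highest. It rose from B to C1 (2.03 ± 0.29), was higher in C1 than in A (1.88 ± 0.29) and fell from C1 to C3 (-1.66 ± 0.29). The call of Gstt3 between C1 and A was lost in a fit on the 4 libraries alone (adjusted p = 0.0576). Gstt2 fell from B to C1 (-1.77 ± 0.53). The call of Gstt2 between C1 and B was lost without B replicate 1, B replicate 2 or C1 replicate 2 (-1.81, -1.73 and -0.97 in turn), under quantile normalization (-1.43) and in a fit on the 4 libraries alone (adjusted p = 0.079). Gstp1 and Gstp2, the pi class, were lowest in B and rose from B to C1 (1.62 ± 0.21 and 1.60 ± 0.21). These neighbours on chromosome 19 are near-identical copies, their values differed by at most 0.26 in any library, and they cannot be taken as separate evidence. Gstp1 was also lower in B than in A (-1.06 ± 0.21). The call of Gstp1 between B and A was lost without A replicate 2 or B replicate 1 (-0.97 and -1.0 in turn). Gsto2, of the omega class (chromosome 19, 47865438 to 47886308), stood at -2.71 and -1.49 for A, -0.26 and 0.20 for B, 0.13 and -0.13 for C1, 0.37 and -0.46 for C2 and 0.82 and 2.25 for C3, with A replicate 1 lowest. It was higher in B (2.07 ± 0.58) and C1 (2.10 ± 0.58) than in A. The call of Gsto2 between B and A was lost without A replicate 1, B replicate 1 or B replicate 2 (1.46, 2.30 and 1.84 in turn) and in a fit on the 4 libraries alone (adjusted p = 0.0752). The call of Gsto2 between C1 and A was lost without A replicate 1, C1 replicate 1 or C1 replicate 2 (1.49, 1.97 and 2.24 in turn) and in a fit on the 4 libraries alone (adjusted p = 0.0699). Gsto1 and Gstz1 were called in no comparison.

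The membrane transferases, which sit in the endoplasmic reticulum and mitochondria, did not move together. Mgst3 (chromosome 1, 167371966 to 167393841) stood at 0.43 and -0.46 for A, 2.66 and 2.56 for B, -0.51 and 0.03 for C1, -0.03 and 0.13 for C2 and -0.12 and -0.38 for C3, so both B libraries lay far above all others. It rose from A to B (2.62 ± 0.31, adjusted p = 0.000945) and fell from B to C1 (-2.85 ± 0.31, adjusted p = 0.000435). Mgst2 (chromosome 3, 51636912 to 51682675) stood at -0.98 and -0.05 for A, 0.05 and 1.59 for B, -2.72 and 0.39 for C1, 2.63 and 3.33 for C2 and -1.22 and -0.90 for C3. Both C2 libraries were highest, and C1 replicate 1 lay far below C1 replicate 2. It rose from C1 to C2 (4.14 ± 0.99, adjusted p = 0.0182) and fell from C2 to C3 (-4.04 ± 0.99, adjusted p = 0.0153). The call of Mgst2 between C2 and C1 was lost without C1 replicate 1, C2 replicate 1 or C2 replicate 2 (2.59, 4.49 and 3.79 in turn) and in a fit on the 4 libraries alone (adjusted p = 0.0928). The call of Mgst2 between C3 and C2 was lost without any 1 of the 4 libraries (-4.39 to -3.69). Mgst1 (chromosome 6, 138140527 to 138156755) stood at 0.07 and -0.47 for A, -0.07 and -0.05 for B, 0.67 and 0.87 for C1, 0.05 and 0.39 for C2 and -0.30 and -0.66 for C3, with C1 highest, and fell from C1 to C3 (-1.25 ± 0.23, adjusted p = 0.0039).

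**Figure D5:**
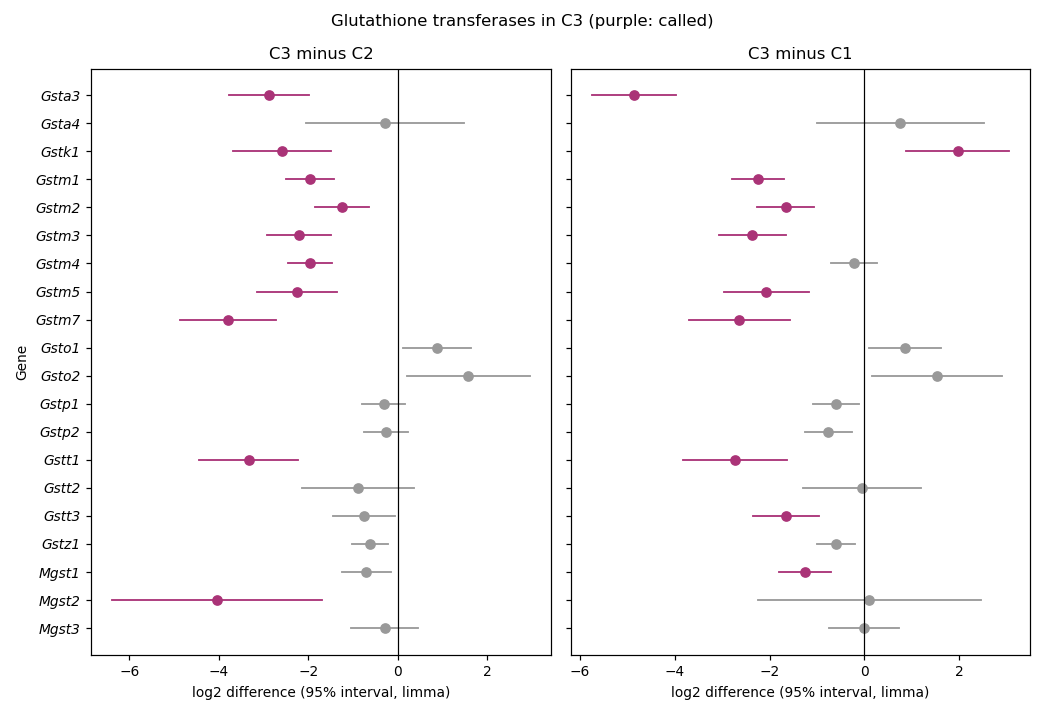
Log2 differences of the 20 tested glutathione transferases from C2 to C3 (left) and from C1 to C3 (right), with 95% intervals from limma and called genes in purple. All 6 Gstm genes lie below 0 with their intervals in the left panel, and Gstk1 is below 0 on the left and above it on the right.

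Marker genes of cell types shifted between C2 and C3 as well, and a change in cell makeup cannot be told apart from one in RNA per cell. Of 10 fibroblast and stroma markers 10 fell from C2 to C3, and of 7 markers of epicardium and mesothelium, the epithelium that covers the heart, 6 rose. Of 5 heart muscle markers 1 rose and 1 fell, of 6 endothelial markers 1 rose, and of 5 smooth muscle markers 2 fell. The mean log2 value of the fibroblast markers was -1.12 and -1.40 for C1, 0.30 and 0.23 for C2 and -3.16 and -3.88 for C3, and it was 2.55 and 1.97 for A and 0.79 and 0.69 for B. That of the mesothelial markers ran from -2.65 and -2.57 for A and -0.43 and -0.38 for B over -1.07 and -0.93 for C1 and 0.38 and 0.48 for C2 to 4.14 and 4.18 for C3. The summed level could be given for only 1 fibroblast marker and 1 mesothelial marker. Thy1 held 6322 and 5772 normalized reads in A, 832 and 866 for B, 20.3 and 17.6 for C2, and less than 2 in every library of C1 and C3. Krt8 held 11.1 and 12.4 for C3 and less than 2 in every other library. Sequencing depth was also highest in C3. The part of these shifts in the falls of the transferases and Gpx3 and in the rises of Gclm, Gclc, Gsr, Txn1, Txnrd1 and Nqo1 from C2 to C3 was not tested. From C1 to C2, where Sod3 and Sod2 fell and Gpx3 had its largest step, 5 of the 10 fibroblast markers rose and 2 fell, with a median difference of 1.51, and 2 of the 7 mesothelial markers rose. Their part in those falls was not tested either.

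Other genes of the pathway were read as lists, chosen with earlier results of these data known, to be set against the shares of all genes called given above. Of 9 regulators of the Nrf2 axis tested, 0 rose and 0 fell from A to B, 0 rose and 2 fell from B to C1, 0 rose and 1 fell from C1 to C2, 1 rose and 0 fell from C2 to C3, 1 rose and 2 fell from C1 to C3 and 0 rose and 0 fell from A to C1. Nfe2l2, which encodes Nrf2, stood at 0.14 and 0.65 for A, 0.98 and 0.84 for B, -0.38 and 0.11 for C1, -0.27 and -0.11 for C2 and -0.14 and -0.12 for C3 and fell from B to C1 (-1.05 ± 0.23). Mafk, a small Maf protein that pairs with Nrf2, fell from B to C1 (-1.07 ± 0.17) and rose from C2 to C3 (2.23 ± 0.17). Bach1, a repressor at the same elements, was lower in C3 than in C1 (-1.16 ± 0.14). Of 14 genes of cystine import and glutathione turnover, 4 rose and 1 fell from A to B, 2 rose and 2 fell from B to C1, 0 rose and 2 fell from C1 to C2, 2 rose and 4 fell from C2 to C3, 3 rose and 4 fell from C1 to C3 and 1 rose and 0 fell from A to C1. Slc7a11, the cystine transporter that feeds glutathione synthesis, rose from C2 to C3 (1.30 ± 0.16), as Gclc and Gclm did, and so did Ggt1, a gamma-glutamyl transferase that breaks down extracellular glutathione (2.40 ± 0.68). Anpep, a peptidase of the cell surface, rose from A to B (3.76 ± 0.53) and fell from B to C1 (-4.95 ± 0.53). Ggt5, which cleaves extracellular glutathione conjugates, stood at -0.23 and -0.20 for A, 1.30 and 1.56 for B, 4.75 and 4.48 for C1, 0.20 and -0.34 for C2 and -4.26 and -4.29 for C3, higher in C1 than in A (4.82 ± 0.21), then falling from C1 to C2 (-4.68 ± 0.21) and from C2 to C3 (-4.20 ± 0.21), with C3 below C1 (-8.89 ± 0.21). Like Gpx3, it was highest in both C1 libraries and lowest in both C3 libraries.

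Of 14 genes of thiol repair and thioredoxin partners, 5 rose and 2 fell from A to B, 2 rose and 5 fell from B to C1, 1 rose and 2 fell from C1 to C2, 0 rose and 3 fell from C2 to C3, 1 rose and 4 fell from C1 to C3 and 1 rose and 1 fell from A to C1. Sesn1, a stress-induced sestrin, rose from A to B (2.45 ± 0.17), as did Txnip, which binds thioredoxin (1.99 ± 0.37). Msrb2, a methionine sulfoxide reductase, was lower in C3 than in C1 (-3.22 ± 0.17), and Sesn3, another sestrin, fell from C2 to C3 (-2.69 ± 0.27). Of 15 genes of NADPH supply, 1 rose and 1 fell from A to B, 3 rose and 4 fell from B to C1, 3 rose and 3 fell from C1 to C2, 3 rose and 4 fell from C2 to C3, 4 rose and 3 fell from C1 to C3 and 4 rose and 3 fell from A to C1. Pgd and Taldo1 of the pentose phosphate pathway fell from B to C1 (-2.62 ± 0.19 and -2.36 ± 0.22), and Taldo1 (1.65 ± 0.22) and malic enzyme Me2 (2.17 ± 0.16) rose from C2 to C3. Larger than these were the falls, in the same step, of Aldh1l1 (-4.19 ± 0.24) and Aldh1l2 (-3.35 ± 0.44), formyltetrahydrofolate dehydrogenases of the cytosol and of mitochondria. Aldh1l2 had risen from C1 to C2 (2.93 ± 0.44), Aldh1l1 was lower in C3 than in C1 (-5.83 ± 0.24), and Mthfd2, a mitochondrial enzyme of folate metabolism, was higher (3.31 ± 0.17). Of 7 genes of selenoprotein synthesis, 1 rose and 0 fell from A to B, 0 rose and 2 fell from B to C1, 1 rose and 0 fell from C1 to C2, 1 rose and 0 fell from C2 to C3, 2 rose and 0 fell from C1 to C3 and 0 rose and 1 fell from A to C1. Sephs2, which makes the selenium donor for glutathione peroxidases and thioredoxin reductases, rose from A to B (1.46 ± 0.18), fell from B to C1 (-2.37 ± 0.18) and rose from C2 to C3 (1.21 ± 0.18), and it was higher in C3 than in C1 (2.06 ± 0.18). Pstk, a kinase of the same route, was lower in C1 than in A (-1.29 ± 0.17) and rose from C1 to C2 (1.48 ± 0.17).

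Of 10 genes of iron and haem handling, 7 rose and 0 fell from A to B, 0 rose and 7 fell from B to C1, 2 rose and 0 fell from C1 to C2, 1 rose and 1 fell from C2 to C3, 2 rose and 2 fell from C1 to C3 and 0 rose and 2 fell from A to C1. The iron exporter Slc40a1 and the ferritin chain Fth1 rose from A to B (4.35 ± 0.36 and 3.38 ± 0.15), with Hmox1 and with the macrophage markers, and Slc40a1 fell from C2 to C3 (-5.52 ± 0.36) where Tfrc, the receptor that takes up transferrin iron, rose (2.50 ± 0.23). Blvrb, a biliverdin reductase, fell from B to C1 (-3.82 ± 0.27). Of 9 tested genes of NADPH oxidases and other sources of superoxide, 7 rose and 1 fell from A to B, 0 rose and 6 fell from B to C1, 0 rose and 1 fell from C1 to C2, 0 rose and 3 fell from C2 to C3, 0 rose and 3 fell from C1 to C3 and 1 rose and 1 fell from A to C1. Ncf1 and Rac2, subunits of the phagocyte oxidase, rose from A to B (8.23 ± 1.75 and 7.54 ± 0.99) and fell from B to C1 (-11.43 ± 1.75 and -10.17 ± 0.99), and Nox4, the oxidase of fibroblasts and vessel wall, fell from C1 to C2 (-1.70 ± 0.32) and from C2 to C3 (-2.26 ± 0.32). Of 15 other detoxification enzymes, 3 rose and 1 fell from A to B, 3 rose and 1 fell from B to C1, 1 rose and 6 fell from C1 to C2, 3 rose and 3 fell from C2 to C3, 1 rose and 5 fell from C1 to C3 and 2 rose and 1 fell from A to C1. Cbr1 and Cbr3, carbonyl reductases, were lower in C3 than in C1 (-4.07 ± 0.20 and -3.93 ± 0.24). Aldh3a1, an aldehyde dehydrogenase, fell from C1 to C2 (-3.82 ± 0.67) and rose from C2 to C3 (3.27 ± 0.67). Aox1, an aldehyde oxidase, rose from B to C1 (2.45 ± 0.22).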

How the data were processed

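RNA of 10 libraries, 2 for each of 5 cell types, was sequenced after poly(A) selection with a kit that does not mark strand, per the labels' protocols. TopHat, DESeq and build mm10 are named in the submitters' processing notes, with no version, role or order, and the counting step and annotation are not stated there. The deposited values are on a log2 scale. No header or label states their normalization. From the values, each looks like a size-scaled read number, raised to at least 1, then taken to log2, minus the median of the gene. Low values gave whole reads for only 31.7% to 70.1% of genes (tolerance 0.01), so no count model was fitted and depth is relative only.

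Of 36172 genes, 17 had an unreadable cell and 18334 were listed at 0 throughout. Genes with a known level, 4763 of the 17821 with values, needed 10 normalized reads in 2 libraries, which left 14253. Limma 3.58.1 in R 4.3.3 was fitted to all 10 libraries with no covariate, 5 residual degrees of freedom and Benjamini-Hochberg adjustment, all tests were two-sided, and limma's test gave every adjusted p printed. It was also run on simulated data with 200 genes changed by known amounts and the same spread in all types, unlike the A libraries here. The outcome of that run is not given here. Genes were called at an adjusted p under 0.05 and a difference of at least 1. Alternatives changed the filter, scaling, libraries sharing the spread, empirical Bayes step or replicate block, or left out a library.

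Enzymes named with all values were the 3 of each role with the widest range of type means, with others added after their values were seen. Called enzymes were also named, and from each pathway list the 2 genes with the largest called rise and the 2 with the largest called fall over the 6 comparisons, with a few others among the 2 largest of a single comparison. The members and lists were chosen with earlier results of these data known. A chi-square on the recovered reads used only genes of known level with at least 20 such reads in both libraries, from 81 genes in C2 to 420 in B. On these it put the libraries of every type apart beyond counting noise, by 1.69 per gene in B to 35.9 in A, and none were merged. The read unit behind it is uncertain, since low values gave whole reads for only part of the genes. Gene positions and promoters are from RefSeq, GRCm38.p6, the assembly of mm10.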

Additional observations from a re-analysis of the deposited data

How the results depend on the processing

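Over 93 called pairs of an enzyme and a comparison, 55 were called under every alternative run. Removing the filter and the robust empirical Bayes step kept all 93, library median centring 92, quantile normalization 77 and fits on the 4 libraries compared 79. Of the counts of enzymes called, quantile normalization moved the rises from A to B to 7, the falls from B to C1 to 8 and the rises from A to C1 to 8. The shares of all tested genes beside these were 10.4%, 15.7% and 15.6% in turn. It turned 2 called differences, Gpx3 from C2 to C3 (0.0627) and Gsta3 from B to C1 (0.0170), and the cause was not tested. The 4-library fits, with fewer libraries behind the spread, gave 3 falls from A to B, beside 7.81% of all tested genes. From A to C1 they gave 5 calls, 1 rise and 4 falls, beside 16.7%, 6.01% and 10.65% of all tested genes in turn. Leaving out each library in turn gave 2 to 5 falls from A to B, 3 to 7 rises from C1 to C3, and, from A to C1, 12 to 20 calls, 4 to 10 rises and 7 to 10 falls. Where this left a type with 1 library, that library was taken to vary like the other types. With the replicate number as a block all 93 pairs were still called and 1 was gained, with 15 falls from B to C1, beside 20.9% of all tested genes. Replicate differences correlated between types at -0.0609 to 0.0892, above 0 in 7 of 10 pairs of types. This gave no sign that the numbers pair the libraries, but with 1 difference per type it cannot exclude pairing. Depth, from 0.436 to 5.03 relative units, limits what low genes can show.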
